A study of Mus musculus with 18 samples.

Results

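The nuclear-encoded subunits of the mitochondrial respiratory chain were followed in mouse immune cells exposed to a cell wall extract. Members were the genes whose symbol begins with Nduf, Uqcr, Atp5, Cox4, Cox5, Cox6, Cox7 or Cox8, plus Sdhb, Sdhc, Sdhd and Cyc1. They numbered 90 of the 18193 genes that the array annotation names singly. The members comprised 34 complex I subunits, 8 complex I assembly factors, 3 subunits of complex II, 9 of complex III, 17 of complex IV, 17 of complex V and the pair Ndufa4 and Ndufa4l2. Each gene was represented by its probe set with the highest mean log2 signal over all arrays, chosen from 176 member probe sets. A further 10 probe sets that carry a member symbol beside another symbol were not used.

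The data were 18 Affymetrix arrays of total RNA: 6 controls at 0 h, 6 arrays taken 1 h after treatment and 6 taken 4 h after it. The series text speaks of knockout mice, and the labels give no genotype, strain, age, sex, cell type, extract source or animal for any array, so all 3 times are described as labelled only. Titles carry array codes, which run over 3 separate ranges (44 to 54, 32 to 37, 12 to 22). Every range includes 2 arrays per time, and the labels do not say what a code stands for. Nothing in the labels says that arrays of a time came from separate cultures or animals, so p-values measure the spread between these arrays, which may in part be technical.

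The respiratory chain passes electrons from NADH, through complex I, and from succinate, through complex II, to ubiquinone, then through complex III and cytochrome c to oxygen at complex IV. Complexes I, III and IV pump protons across the inner mitochondrial membrane, and complex V uses the resulting gradient to make ATP. Macrophages stimulated with microbial products are known to shift energy metabolism towards glycolysis, and complexes I and II are also sources of reactive oxygen species in them. Most subunits are encoded in the nucleus, and the mitochondrially encoded ones have no singly named probe set among those analysed here.

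A probe set was tested when its signal exceeded its array's median on at least 4 of the 18 arrays, which 25804 probe sets did. Of the 90 members, 86 passed, and 83 of these lay above the median on every array. Cox4i2, Cox7b2, Cox8b and the singly named probe set of Ndufb4 did not pass. The trimmed mean signal was 500.0 on each array, while the median signal per array was 89.5 to 105.1 at 0 h, 85.9 to 107.9 at 1 h and 74.5 to 87.3 at 4 h. All 12 macrophage markers and all 5 general leukocyte markers on the array passed the filter, as did 1 of 5 T cell, 2 of 5 B cell, 2 of 5 NK cell and 2 of 8 muscle markers. Also past it were 8 of 10 neutrophil markers, 8 of 9 stromal markers and 13 of 13 cell cycle genes. In bulk RNA, fewer cells of a type and less RNA per cell cannot be told apart.

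Promoters of 8 members are shown with the motifs of factors known to drive respiratory genes. The 3 short motifs below were searched on both strands in the window from 250 bases before to 50 bases after the annotated start in RefSeq's GRCm38.p6: CGCATGCG, the core of the nuclear respiratory factor NRF1, CCGGAAG, the ETS core bound by GABPA, and AAGATGGC, the core of YY1. The GABPA core ends and the YY1 core begins with the letters AAG, so a single site can count for both. A promoter was found for 73 of the 90 members. The 100 bases before the start are printed 5′ to 3′ on the gene's strand, with any motif in capitals, for the member that rose at 4 h (Ndufb1), the one with the largest fall there (Ndufaf7), and Ndufc1 and Cox5b, which were lower in the codes 44 to 54 than in the codes 12 to 22. Ndufa8, Ndufs3 and Sdhd, which fell at 4 h, and Uqcrh, called higher in the codes 32 to 37 than in the codes 12 to 22, were chosen because their stretch holds a motif.
Ndufb1: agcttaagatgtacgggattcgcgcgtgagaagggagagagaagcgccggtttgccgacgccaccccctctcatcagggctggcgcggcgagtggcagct
Ndufaf7: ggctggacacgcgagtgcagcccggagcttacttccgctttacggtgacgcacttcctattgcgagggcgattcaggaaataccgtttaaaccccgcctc
Ndufc1: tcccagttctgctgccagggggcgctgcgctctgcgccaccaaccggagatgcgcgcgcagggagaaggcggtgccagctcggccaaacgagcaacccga
Cox5b: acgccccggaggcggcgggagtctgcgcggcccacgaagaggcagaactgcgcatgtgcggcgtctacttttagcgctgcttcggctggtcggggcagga
Ndufa8: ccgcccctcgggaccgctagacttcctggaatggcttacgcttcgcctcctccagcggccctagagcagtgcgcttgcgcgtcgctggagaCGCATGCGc
Ndufs3: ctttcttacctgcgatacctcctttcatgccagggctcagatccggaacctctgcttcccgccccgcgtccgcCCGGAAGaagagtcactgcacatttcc
Sdhd: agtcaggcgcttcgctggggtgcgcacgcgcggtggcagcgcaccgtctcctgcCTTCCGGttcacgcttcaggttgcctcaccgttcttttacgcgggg
Uqcrh: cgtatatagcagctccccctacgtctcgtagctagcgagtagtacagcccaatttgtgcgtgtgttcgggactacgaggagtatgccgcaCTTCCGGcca
These stretches lie on the minus strand at chr12:101975739-101975838 (Ndufb1), chr2:36049339-36049438 (Ndufa8), chr2:90904722-90904821 (Ndufs3), chr9:50603850-50603949 (Sdhd), chr4:116075071-116075170 (Uqcrh) and chr3:51408956-51409055 (Ndufc1), and on the plus strand at chr17:78937035-78937134 (Ndufaf7) and chr1:36691387-36691486 (Cox5b). Ndufa8 holds the NRF1 core near the start, and Ndufs3, Sdhd and Uqcrh hold the GABPA core, in the last 2 as its reverse complement. None of the 3 motifs is in the 300-base windows of Ndufb1, Ndufaf7, Cox5b, Ndufa6, Cox7c or Ndufab1, which says only that these letters are not there. Ndufaf5 has the NRF1 core, and Ndufc1 and Ndufb8 the YY1 core, in the window but outside the 100 bases before the start. Ndufs1 was not among the matched members. Over the 300-base windows, at least 1 of the 3 motifs occurred in 31 of the 73 members (42.5%), against 13.1% of all 27025 RefSeq promoters. The NRF1 core was in 9 members (12.3%, against 1.91% of all promoters), the GABPA core in 18 (24.7%, against 9.12%) and the YY1 core in 9 (12.3%, against 2.88%). A match is a description of the letters and not evidence that a factor binds.

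No member's representative probe set was called within the first hour of treatment. None passed limma's moderated test at 1 h against 0 h at an adjusted p of 0.05 over all probe sets. Of all tested probe sets, 0.612% were called higher and 0.14% lower. In the same test 1 of the 86 members had an unadjusted p under 0.05, as had 1765 of the 25804 probe sets tested. The median log2 fold change of the members was -0.09 and 76 of 86 values were below 0, while the median of all tested probe sets was -0.04. A second, dimmer probe set of Ndufab1, with a median signal of 113, was called lower at 1 h (-0.93 on the log2 scale; limma adjusted p = 0.00505), while the representative one had -0.04. The members' median stood at -0.07, -0.12 and -0.06 within the codes 44 to 54, 32 to 37 and 12 to 22.

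At 4 h, 1 subunit rose and 8 members fell relative to 0 h. Called lower were 4 of 33 tested complex I subunits and 2 of 8 assembly factors. The others were 1 of 3 complex II and 1 of 14 complex IV members. Ndufb1, an accessory subunit of the membrane arm of complex I, rose, and the assembly factor Ndufaf7 showed the largest fall. Of the 86 tested, 1 was called higher (1.16%) and 8 lower (9.30%), with 9.93% of all tested probe sets called higher and 23.1% lower. Both member shares were below the background in this fit, which has no block for code range. With that block 30 of the 86 were called lower (background 30.3%), and after quantile normalization without it 22 (background 15%). Without the adjustment 20 of the 86 members had a limma p under 0.05, as had 11052 of the 25804 probe sets tested. Arrays of the times did not overlap for 1 member on the higher and 3 on the lower side, with 5.59% and 11.3% of all tested probe sets.

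**Figure D1:**
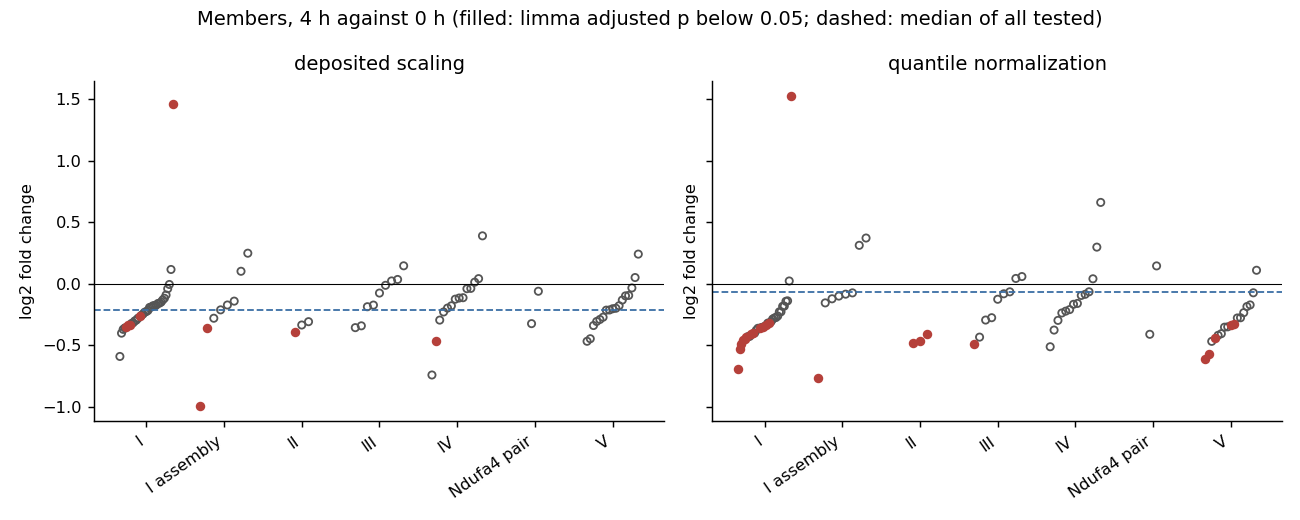
Log2 fold change of each member at 4 h against 0 h (vertical axis), grouped by complex (horizontal axis), under the deposited scaling (left) and after quantile normalization (right). Filled points passed limma's adjusted p of 0.05, open points did not, and the dashed line is the median of all tested probe sets; Ndufb1 stands alone at 1.46 (left) and 1.52 (right), and filled points below 0 number 8 on the left and 22 on the right.

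Ndufb1 had signals of 1212 to 2009 at 4 h with a median of 1569, against 402 to 665 at 0 h with a median of 572 (6 arrays each). All 6 arrays at 4 h lay above all 6 at 0 h. Ndufb1 rose by 1.46 ± 0.16 on the log2(signal + 16) scale (SE; limma adjusted p = 3.02e-06), which is 2.75-fold. The rise was seen within each code range, at 1.56, 1.09 and 1.72 for the codes 44 to 54, 32 to 37 and 12 to 22. At 1 h the signals were 484 to 740, overlapping those at 0 h. Against 1 h the level at 4 h was likewise higher, by 1.29 on the log2 scale.

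The methyltransferase Ndufaf7, which in human cells modifies a core subunit early in complex I assembly, had signals of 170 to 335 at 4 h with a median of 312, against 533 to 633 at 0 h with a median of 579. All arrays at 4 h lay below all at 0 h. It fell by 0.99 on the log2 scale (SE 0.14; limma adjusted p = 3.06e-05), and the change was -1.24, -0.84 and -0.89 for the codes 44 to 54, 32 to 37 and 12 to 22. At 1 h its signals were 528 to 611, overlapping the 0 h arrays. A second assembly factor, Ndufaf5, which in human cells hydroxylates another core subunit, had signals of 203 to 243 at 4 h, against 212 to 374 at 0 h, and fell by 0.36 (SE 0.13; limma adjusted p = 0.0373). Its groups overlapped, and after quantile normalization its log2 fold change was -0.08 with an adjusted p of 0.747.

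Core and accessory subunits of complex I also fell. Ndufs3, a core subunit, had signals of 2167 to 2606 at 4 h with a median of 2298, against 2672 to 3052 at 0 h with a median of 2983, with no overlap. It fell by 0.33 (SE 0.10; limma adjusted p = 0.0153). Ndufs1, the largest core subunit and a carrier of iron-sulphur clusters, had signals of 1833 to 2018 at 4 h, against 2055 to 2495 at 0 h, again without overlap, and fell by 0.26 (SE 0.09; limma adjusted p = 0.0315). Ndufa8, an accessory subunit with the NRF1 core shown above, had 3702 to 4742 at 4 h, against 4680 to 5780 at 0 h, so that the highest array at 4 h exceeded the lowest at 0 h. It fell by 0.34 (SE 0.11; limma adjusted p = 0.0213). Ndufa6, an accessory subunit of the peripheral arm, had 1930 to 2570 at 4 h, against 2160 to 3417 at 0 h, and fell by 0.35 (SE 0.13; limma adjusted p = 0.0444) with overlapping groups.

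**Figure D2:**
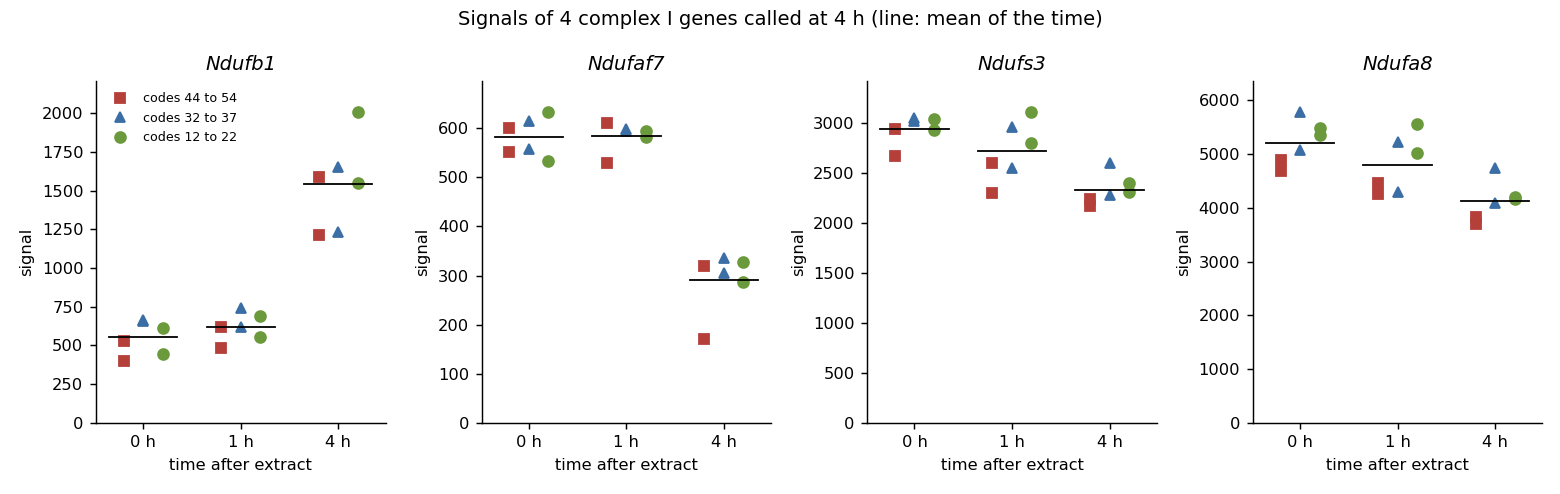
Signal (vertical axis, linear, from 0) of Ndufb1, Ndufaf7, Ndufs3 and Ndufa8 on each of the 18 arrays by time after the extract, with array-code ranges as colours and the mean of each time as a line. For Ndufb1 all 4 h arrays lie above the 0 h arrays, for Ndufaf7 and Ndufs3 all lie below them, and for Ndufa8 the groups overlap.

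In complex II, the membrane anchor Sdhd had signals of 1985 to 2814 at 4 h with a median of 2556, against 2508 to 4262 at 0 h with a median of 3191. It fell by 0.39 (SE 0.14; limma adjusted p = 0.0331), with overlap between the groups. The iron-sulphur subunit Sdhb and the other anchor Sdhc had log2 fold changes of -0.34 and -0.31, with limma adjusted p of 0.117 and 0.112. After quantile normalization all 3 were called lower. Complex III had no call among 9 members, and their log2 fold changes were between -0.36 and 0.14. In complex IV, 1 of 14 tested members was called: Cox7c, a small nuclear-encoded subunit, had signals of 130 to 236 at 4 h, against 196 to 315 at 0 h, and fell by 0.46 (SE 0.16; limma adjusted p = 0.0321). Its groups overlapped, its change within the codes 12 to 22 was -0.05, and after quantile normalization it was -0.16 with a limma adjusted p of 0.506. The Cox7c probe set, which has the shared-target suffix s, was dim. Its median signal was 210, beside 3167 for Cox8a and 25163 for Cox6a1. Complex V had no call among 17 members, whose median was -0.20. These calls are from the fit without a block for code range. With that block, under the deposited scaling, 16 of 33 complex I subunits and 2 of 8 assembly factors were called lower. So were 3 of 3 complex II, 2 of 9 complex III, 1 of 14 complex IV and 5 of 17 complex V members (background 30.3%).

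The direction over the members as a whole depended on the scaling. The median log2 fold change at 4 h against 0 h was -0.20 under the deposited scaling and -0.28 after quantile normalization, but 0.06 when arrays were centred on their medians. The median of all tested probe sets was -0.22, -0.07 and 0.04 under these scalings, so relative to it the members stood at 0.02 as deposited and at -0.22 after quantile normalization. Quantile normalization gave 22 members called lower and 1 called higher (background 15% lower and 12.3% higher), and 6 of the 8 that fell as deposited were among the 22. The 22 held 12 subunits of complex I, 1 assembly factor, all 3 of complex II, 1 of complex III, 5 of complex V and none of complex IV. The largest of those added were the core subunit Ndufs8 (-0.70), the ATP synthase gamma subunit Atp5c1 (-0.61) and the membrane ring subunit gene Atp5g2 (-0.57), the values being log2 fold changes after quantile normalization. With a block for the code range, 30 members were called lower (background 30.3%), and block and quantile normalization together gave 49 lower and 3 higher (background 21% and 15.6%). Median centring, or no filter, left Ndufaf7 alone called lower. Under median centring 2681 of the 25804 probe sets tested were called lower and 4197 higher. The largest limma adjusted p over the alternatives was 0.730 for Ndufa6, which lost its call under 13 of 28, and 0.617 for Sdhd and 0.965 for Ndufs1, which lost theirs under 8 each. Ndufaf5 lost its call under 11 of 28 and Cox7c under 9 of 27. Ndufs3 and Ndufa8 lost theirs under median centring and with no filter only. With single arrays left out, 3 to 10 members were called lower, the 3 without code 32 or without code 46.

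Taken range by range (44 to 54, 32 to 37, 12 to 22), the members' median at 4 h against 0 h was -0.16, -0.24 and -0.22, beside -0.23, -0.20 and -0.21 for all tested probe sets. The sign was negative in all 3 ranges for 59 of the 86 members. No member passed the moderated F test of a difference between ranges in the 4 h response, in which 0.837% of all tested probe sets were called. In that test no member had an unadjusted p under 0.05, while 2653 of the 25804 probe sets tested had one. At 4 h against 0 h, 2 of 13 cell cycle genes and 2 of 5 general leukocyte markers were called lower. No stromal marker was called in either direction. Of all tested probe sets, 23.1% were called lower and 9.93% higher in that comparison.

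Relative to 1 h, the same subunit and the same assembly factor were the only members called at 4 h. Ndufb1 rose by 1.29 on the log2 scale and Ndufaf7 fell by 1.00, with 7.7% of all tested probe sets called higher and 16.7% lower. The 4 h arrays did not overlap the 1 h arrays for either gene, and these were the only 2 such members (3.62% of all tested probe sets on the higher side, 6.76% on the lower). The members' median was -0.11 as deposited (all tested -0.17) and -0.21 after quantile normalization (all tested -0.03), while median centring turned it to 0.12 (all tested 0.07). A block for the code range gave 11 members called lower and 1 higher (background 23.3% and 10.6%), quantile normalization 6 lower and 1 higher (10.4% and 9.31%), and both together 26 lower and 2 higher (16.1% and 13.1%). These comparisons share the 4 h arrays with those above.

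The paralogue pair and the tissue isoforms gave no call at 4 h against 0 h under the deposited scaling without a block. Ndufa4, once counted in complex I and now placed at complex IV, had a log2 fold change of -0.33 (limma adjusted p = 0.124, and 0.0344 when code range was a block). Ndufa4l2, its hypoxia-linked paralogue, had signals of 12.9 to 120.7 over the 18 arrays and exceeded its array's median on 4 of them. Cox4i1, the general isoform of subunit IV, had -0.11 (limma adjusted p = 0.571), while Cox4i2, known from lung and low oxygen, had signals of 8.85 to 138.9 and exceeded the median on 2 arrays. Of the heart and skeletal muscle isoforms, Cox8b exceeded it on 2 arrays, Cox6a2 on 17 and Cox7a1 on 18, and of the testis isoforms Cox7b2 exceeded it on 0, Cox6b2 on 9 and Cox8c on 18. Cox6a1, Cox6b1, Cox7a2 and Cox8a, the general partners of these isoforms, had log2 fold changes of -0.13, -0.20, -0.04 and -0.30. With block and quantile normalization together, Cox6a2 (0.66, limma adjusted p = 0.0241) and Cox8c (0.30, adjusted p = 0.0496) were called higher. In the same fit Ndufa4 (-0.41, limma adjusted p = 0.00966), Cox8a, Cox4i1 and Cox6b1 (adjusted p of 0.0198, 0.0350 and 0.0444) were called lower.

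A paralogue of Ndufa4 outside the member rule, AA467197, rose at 4 h. Its product is the mouse counterpart of a human mitochondrial microprotein induced in inflammation. Its signals were 957 to 8297 at 4 h with a median of 2671, against 117 to 679 at 0 h with a median of 320. All arrays at 4 h lay above all at 0 h, and the rise was 3.04 ± 0.57 on the log2 scale (limma adjusted p = 5.08e-04). At 1 h the signals were 97.3 to 785 and overlapped those at 0 h.

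Among 43 other respiratory genes and assembly factors, 4 were called higher and 16 lower at 4 h against 0 h, where 9.93% of all tested probe sets were called higher and 23.1% lower. Dmac2, an assembly factor for the complex I membrane arm, fell by 1.57, with a mean signal of 153 ± 18.6 at 4 h, against 487 ± 76.2 at 0 h (SD, n = 6 each; limma). Tmem126b, of the complex that assembles that arm, fell by 1.37, and Coa6, which helps to place copper in complex IV, fell by 1.07. Cycs, cytochrome c, rose by 0.54 and had a mean of 20377 ± 2714 at 4 h, against 14001 ± 1700 at 0 h. Of 76 mitochondrial ribosome genes 4 were called higher and 17 lower, with Mrpl52 at 1.41, Mrpl42 at -0.85 and Mrpl34 at -0.83. Of 19 genes of the tricarboxylic acid cycle and pyruvate dehydrogenase, 2 were called in each direction, among them Dld at 0.58 and Fh1, fumarate hydratase, at -0.57. The share of ribosome genes called lower is near that of all tested probe sets.

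For the next 3 lists at 4 h against 0 h, the background is 9.93% of all tested probe sets called higher and 23.1% lower. Of 20 regulators of mitochondrial biogenesis, 5 rose and 6 fell, the lower share being near that background. Pprc1, a coactivator of the PGC-1 family, rose by 1.20, Polg2, the accessory subunit of the mitochondrial DNA polymerase, fell by 1.29, and Ppargc1b, another PGC-1 coactivator, fell by 1.01. Nrf1 rose by 0.49, with mean signals of 400 ± 51.6 at 4 h and 278 ± 27.2 at 0 h. Gabpa and Yy1, whose motifs were searched above, had log2 fold changes of 0.15 and 0.12 with limma adjusted p of 0.460 and 0.452. Of 21 carriers and import genes 5 rose and 1 fell, the 3 largest rises being the intermembrane-space import factor Chchd4 (0.64), Timm17a (0.58) and Timm10 (0.40). Of 11 hypoxia-linked genes 4 rose and none was called lower, led by the glucose transporter Slc2a1 (2.47), Hif1a (1.15) and Bnip3 (1.04). Cycs, Nrf1, Gabpa, Yy1, Atp5g2 and, below, Uqcrc1 and Cox6c were named after their values were seen.

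In the codes 44 to 54 against 12 to 22, with time as a covariate, 47 of the 86 members were called lower (54.7%) and none higher, with 8.66% of all tested probe sets called lower and 10.5% higher. The called genes included 23 of 33 complex I subunits, 1 of 8 assembly factors, 1 of 3 complex II, 5 of 9 complex III, 6 of 14 complex IV and 11 of 17 complex V members. The members' median log2 fold change was -0.34, and 79 of 86 values were below 0, with a median of 0.02 over all tested probe sets. The median stayed below 0 after quantile normalization (-0.28, all tested -0.03). There 39 were called lower, 37 of them among the 47, and none higher (background 10.6% lower and 9.11% higher). After median centring it was -0.44 (all tested -0.07), with 54 called lower. Of the 25804 probe sets tested, 3378 were called lower and 1987 higher under that scaling.

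**Figure D3:**
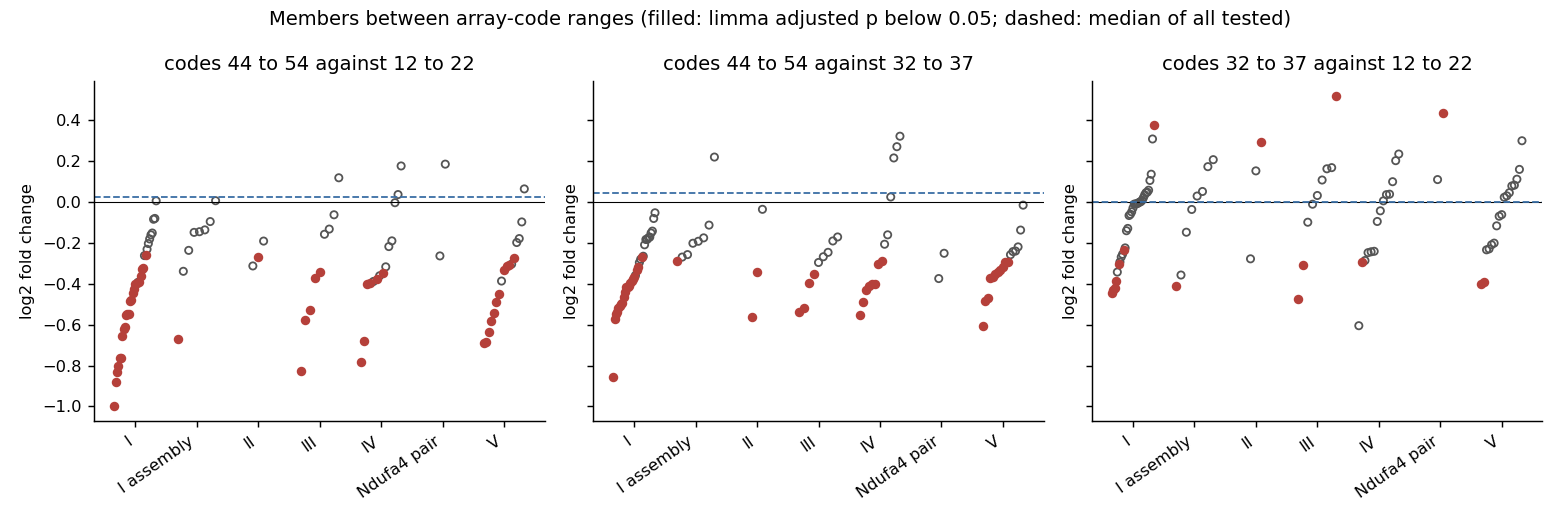
Log2 fold change of each member (vertical axis) by complex (horizontal axis) in the 3 comparisons of array-code ranges, from the limma fit with time as a covariate. Filled points passed an adjusted p of 0.05 and the dashed line is the median of all tested probe sets; 47 points are filled and below 0 in the left panel, 46 in the middle panel and 12 in the right panel, where 4 filled points lie above 0.

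In complex I, the accessory membrane-arm subunit Ndufc1 had signals of 3885 to 5991 in the codes 44 to 54 with a median of 4779, against 7549 to 11096 in the codes 12 to 22 with a median of 9626 (6 arrays each). The ranges did not overlap. The change was -0.995 ± 0.143 on the log2 scale (limma adjusted p = 1.45e-04), with -0.99, -1.21 and -0.79 at 0 h, 1 h and 4 h. Ndufab1, the mitochondrial acyl carrier protein that is also a complex I subunit, had 2330 to 3131 in the codes 44 to 54, against 3993 to 5260 in the codes 12 to 22, a change of -0.88 ± 0.10 (limma adjusted p = 1.85e-05). Ndufb8, an accessory subunit of the membrane arm, had 3709 to 4351 in the codes 44 to 54, against 6501 to 7824 in the codes 12 to 22, and fell by 0.83 (SE 0.10; limma adjusted p = 3.50e-05). Neither gene's groups overlapped. Ndufb7 and Ndufb5, of the membrane arm, and Ndufa12, of the peripheral arm, had log2 fold changes of -0.80, -0.76 and -0.76, all called lower. The Ndufa12 probe set without a shared-target suffix, with a median signal of 364, had 0.41 and was not called (limma adjusted p = 0.230).

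In complex III, Uqcrc2, a core protein, had signals of 3222 to 4574 in the codes 44 to 54, against 6135 to 7489 in the codes 12 to 22, and fell by 0.83 (SE 0.12; limma adjusted p = 1.06e-04) without overlap. In complex IV, the nuclear-encoded Cox5b had 9168 to 11692 in the codes 44 to 54, against 16789.6 to 18028 in the codes 12 to 22, and fell by 0.78 (SE 0.10; limma adjusted p = 3.30e-05). At 0 h, 1 h and 4 h its change was -0.80, -0.84 and -0.70. The general isoforms Cox4i1, Cox6a1, Cox6b1 and Cox8a fell by 0.37, 0.39, 0.35 and 0.40, and so did the muscle isoform Cox7a1, by 0.68. In complex V, Atp5g3, a gene of the membrane ring, fell by 0.31 (SE 0.09; limma adjusted p = 0.0240). After quantile normalization Atp5g3 had -0.18 (limma adjusted p = 0.107) and Cox6b1 had a limma adjusted p of 0.0950, so neither was called there. With no time term Cox8a had a limma adjusted p of 0.0975. Cox8a lost its call under 10 of 27 alternatives, Atp5g3 under 6 and Cox6b1 under 3. Uqcrc2, Cox5b, Cox4i1, Cox6a1 and Cox7a1 were called under all 27.

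Members not called in this comparison included the core complex I subunits Ndufs1 (0.01) and Ndufs3 (-0.15), Uqcrc1 (-0.06), Cox6c (-0.0025) and the hinge protein Uqcrh (0.12), the values being log2 fold changes. The other probe set of Uqcrh was called higher in this comparison (0.54, limma adjusted p = 0.00219). Ndufb1 and Ndufaf7, which moved with time, had -0.23 and -0.14 and were not called. In all, 38 of the 86 members had arrays of the codes 44 to 54 entirely below those of the codes 12 to 22 (44.2%, with 3.19% of all tested probe sets), and none lay entirely above (4.41% of all tested). The members' median was -0.36, -0.37 and -0.31 within 0 h, 1 h and 4 h, and 67 members were lower at all 3 times. The standard deviation between arrays of the members' mean log2 signal was 0.178 within times and 0.0507 within code ranges once the time means were removed.

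**Figure D4:**
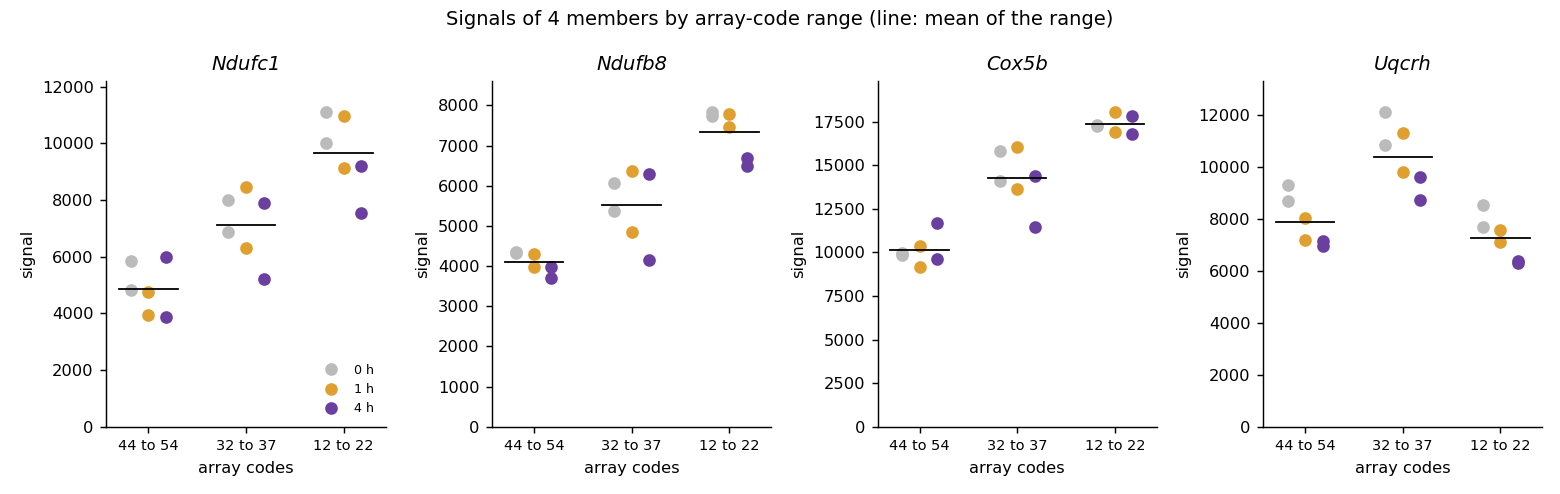
Signal (vertical axis, linear, from 0) of Ndufc1, Ndufb8, Cox5b and Uqcrh on each of the 18 arrays by array-code range, with time as colours and the mean of each range as a line. Ndufc1, Ndufb8 and Cox5b are lower on every array of the codes 44 to 54 than on any array of the codes 12 to 22, while Uqcrh is higher on every array of the codes 32 to 37 than on any of the codes 12 to 22.

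Set against the codes 32 to 37, the codes 44 to 54 had 46 members called lower and none higher, with 8.25% of all tested probe sets called lower and 8.87% higher. The members' median was -0.30 (all tested 0.05), and 72 members were lower at all 3 times. The core iron-sulphur subunit Ndufs8 had signals of 2740 to 4460 in the codes 44 to 54, against 4504 to 9470 in the codes 32 to 37, and fell by 0.86 (SE 0.13; limma adjusted p = 3.63e-04) with no overlap. Atp5o, the stalk subunit of complex V that confers oligomycin sensitivity, had 5805 to 6758 in the codes 44 to 54, against 7740 to 12496 in the codes 32 to 37, and fell by 0.60 (SE 0.11; limma adjusted p = 0.00119). Sdhb had 5618 to 7390 in the codes 44 to 54, against 7435 to 10872 in the codes 32 to 37, and fell by 0.56 (SE 0.08; limma adjusted p = 2.21e-04). The accessory subunit Ndufb11, the supercomplex factor Cox7a2l and the small complex III subunit Uqcrq had -0.57, -0.55 and -0.54, all called lower. A Uqcrq probe set without a shared-target suffix, with a median signal of 86.5, had 0.65 and was not called (limma adjusted p = 0.0844), and a second had 0.28 (adjusted p = 0.636). The groups did not overlap for 14 members (background 2.82%). After quantile normalization 35 were called lower and none higher (background 9.09% and 8.08%). This comparison shares the arrays of the codes 44 to 54 with the one above.

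Between the codes 32 to 37 and 12 to 22 the members split. Called higher were 4 and lower 12, with 9.65% and 8.12% of all tested probe sets, and the median was -0.01. After quantile normalization 6 were called higher and 7 lower (9.17% and 9.02%). The ranges did not overlap for 1 member on the higher and 5 on the lower side (2.73% and 2.08% of all tested). Uqcrh, the hinge protein of complex III, had signals of 8748 to 12105 in the codes 32 to 37 with a median of 10334, against 6287 to 8558 in the codes 12 to 22 with a median of 7336. The groups did not overlap, and it rose by 0.52 (SE 0.08; limma adjusted p = 4.68e-04). In the codes 44 to 54 against 32 to 37 it fell by 0.40 (limma adjusted p = 0.00278). Ndufa4, Ndufb2 and Sdhb rose by 0.44, 0.38 and 0.29. Uqcrc2, Ndufc1, Ndufa12, Ndufb8 and the assembly factor Ndufaf8 fell by 0.47, 0.45, 0.43, 0.42 and 0.41, and the gamma subunit Atp5c1, the peripheral-stalk subunit Atp5j and Ndufab1 fell by 0.40, 0.39 and 0.38. Ndufc1 lost its call here under 14 of 27 alternatives, with a limma adjusted p of 0.0571 after quantile normalization. Ndufaf8 and Ndufb2 each lost theirs under 5, Sdhb under 4, Ndufab1 under 3, Ndufa4 and Atp5c1 under 2 each and Atp5j under 1, while Uqcrh, Uqcrc2 and Ndufb8 were called under all 27.

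**Figure D5:**
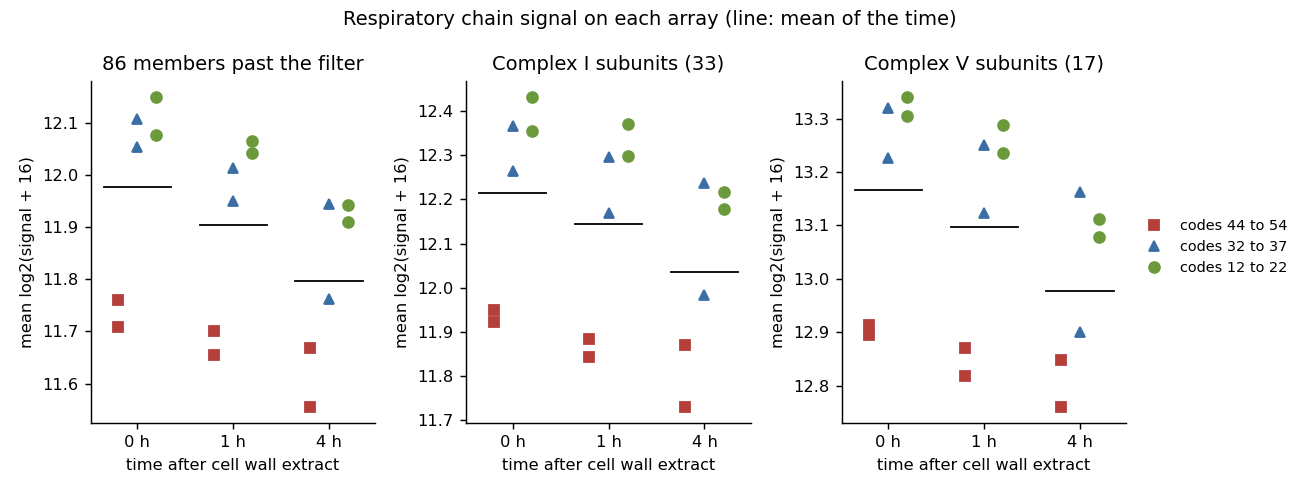
Mean log2(signal + 16) of the 86 members, of the 33 complex I subunits and of the 17 complex V subunits (vertical axes, which do not start at 0) on each of the 18 arrays by time after the extract. Colours mark array-code ranges and lines the mean of a time; over the 86 members every array of the codes 44 to 54 lies below the arrays of the other ranges, at 11.55 to 11.76, against 11.76 to 12.11 for the codes 32 to 37 and 11.91 to 12.15 for the codes 12 to 22.

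Other mitochondrial lists were also called lower in the codes 44 to 54 against 12 to 22: 33 of 76 mitochondrial ribosome genes (Mrps9 at -0.82, Mrps15 at -0.73, Mrpl40 at -0.68), 11 of 21 carriers and import genes (Timm50 at -0.56, Vdac1 at -0.53, Tomm40 at -0.45), 8 of 19 genes of the tricarboxylic acid cycle list (Idh3g at -0.51, Mdh2 at -0.48, Idh3b at -0.46) and 12 of 43 other respiratory genes (AA467197 at -2.28, Uqcc2 at -0.66, Cox20 at -0.64). Of these lists, the tricarboxylic acid cycle list had 1 gene called higher and the others none. Of 20 biogenesis regulators 2 were called lower (Polrmt at -0.58 and Tfb1m at -0.53), a share near the 8.66% of all tested probe sets called lower, with 10.5% called higher.

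Marker lists of other cell types moved with the same ranges. Of all tested probe sets, 10.5% were called higher and 8.66% lower in the codes 44 to 54 against 12 to 22. All 8 stromal markers tested were called higher in the codes 44 to 54 than in the codes 12 to 22, and their summed signal was 18078 to 26494 in the codes 44 to 54, 5238 to 8983 in the codes 32 to 37 and 1719 to 2414 in the codes 12 to 22. Of 8 neutrophil markers 6 were called lower, with sums of 1383 to 2950, 1965 to 4210 and 4301 to 7469 in the same order of ranges. Of 13 cell cycle genes 8 were called lower, with sums of 28288 to 45767, 61339 to 86571 and 39919 to 81688. Both tested B cell markers, Cd79b and Ighm, were called lower, with sums of 58.5 to 308, 204 to 409 and 674 to 1710.2. At 4 h against 0 h 1 of the 2 was called lower, with 23.1% of all tested probe sets called lower. The 12 macrophage markers had 1 call in each direction, with sums of 185564 to 209780, 177207 to 236480 and 168874 to 213384. The part of these markers in the respiratory chain result was not tested.

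Other probe sets of the same genes did not contradict the calls by a call of the opposite sign in any comparison. Of the 47 genes called lower in the codes 44 to 54 against 12 to 22, 31 had 50 further tested probe sets, 44 with the same sign and 30 called lower as well. A further 6 probe sets were called there where the representative one was not. Against the codes 32 to 37, 32 called genes had 54 further probe sets, 48 with the same sign and 33 called the same way. For the codes 32 to 37 against 12 to 22, 11 called genes had 19, of which 15 had the same sign and 3 were called the same way, and 10 were called where the representative one was not. At 4 h against 0 h, 1 of the 9 called genes, Sdhd, had another tested probe set, which was not called (-0.45, limma adjusted p = 0.0810). In that comparison 9 probe sets were called where the representative one was not, 1 higher (Ndufa12) and 8 lower. Ndufb1 and Ndufaf7 had a single probe set each, and that of Ndufaf7 has the shared-target suffix s. Of the 90 representative probe sets, 17 carry the suffix s or x, among them those of Cox5b, Ndufab1 and Uqcrh. The median standard error of a log2 fold change was 0.157 for the members and 0.216 for all tested probe sets in the time comparisons, and 0.101 and 0.182 in the range comparisons.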

How the data were processed

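The authors deposited a signal intensity per probe set on a linear scale, made with MAS5 and GCOS per the submitters' processing notes; their versions and settings are not given. The deposited intensities have the same trimmed mean (2% off each end) on every array. Symbols came from GEO's platform annotation and were updated through gene identifiers with RefSeq's table (34741 of 34945 singly named probe sets matched). From the deposited intensities log2(signal + 16) was computed and fitted across 25804 probe sets with limma 3.58.1 in R 4.3.3 (lmFit, eBayes), with time as a factor for time comparisons, plus code range for range comparisons, and their interaction for the range difference. P-values were adjusted by Benjamini-Hochberg over all probe sets, with a threshold of 0.05. The fits were tested on data simulated with each probe set's own spread within times. At 4 h against 0 h they recovered 20% of 1.5-fold, 58% of 2-fold and 92% of 4-fold changes. For the codes 44 to 54 against 12 to 22 they recovered 24%, 54% and 86%. A probe set without a call may therefore still have changed. Members and lists were chosen with earlier results of these data known, so none of their counts is independent evidence. Named genes were up to 8 members called in each direction with the largest change per comparison, the member with the highest mean signal of each complex, the isoforms listed, AA467197 and up to 3 called genes per list. Quantile normalization, median centring, pseudocounts of 64 and 1, other filters, an intensity trend, a code range block, another choice of probe set and leaving out each array were tried. The number of arrays limits the precision.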

Additional observations from a re-analysis of the deposited data

Results flagged for a closer look

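In 6 of 87 groups of 6 arrays tested (6.90%), the lowest array of a named member lay far from the others of its time, where chance alone gives about 1 in 20. Cox8c, a testis isoform of complex IV, was lowest on arrays of the codes 32 to 37 at every time: 211 at 0 h (code 35; the other arrays 283 to 330), 201 at 1 h (code 33; the others 274 to 328) and 210.4 at 4 h (code 37; the others 295 to 337). Ndufaf7 had 528 at 1 h on the array with code 54 (the others 582 to 611) and 170 at 4 h on the array with code 46 (the others 288 to 335). Ndufs3 had 2672 at 0 h on the array with code 47 (the others 2930 to 3052).

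No member was called for a difference between code ranges in its 4 h response, which does not show that the responses were equal. Ankrd37, of the hypoxia-linked list, was called (limma moderated F, adjusted p = 0.0174 over all probe sets). Its log2 fold change at 4 h against 0 h was 0.33 in the codes 44 to 54, 1.16 in the codes 32 to 37 and -1.34 in the codes 12 to 22.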

How the results depend on the processing

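Ndufb1 and Ndufaf7 kept their direction and their calls at 4 h against 0 h and against 1 h under all 28 alternatives. The limma adjusted p against 0 h was up to 1.38e-05 and 0.00132. Choosing probe sets without the suffixes s and x could not change either result, as each gene has a single probe set. Members called lower at 4 h against 0 h numbered 8 as reported, 22 after quantile normalization, 1 after median centring, 1 with no filter, 30 with a code range block and 49 with block and quantile normalization, which also gave 3 called higher; the median was 0.058 after median centring. Under median centring 2681 of the 25804 probe sets tested were lower and 4197 higher at 4 h against 0 h. At 4 h against 1 h these were 1899 and 3449. Leaving out single arrays gave 3 to 10 members lower at 4 h against 0 h: 3 without code 32 or code 46, and 5 without codes 49, 35, 34, 18 or 12. At 4 h against 1 h, 6 were lower after quantile normalization, 11 with the block, 26 with both and 1 to 3 with single arrays left out (3 without code 54), 2 were higher after median centring and with block and quantile normalization, and the median was 0.12 after median centring.

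For the codes 44 to 54 against 12 to 22, the median was -0.28 after quantile normalization (all tested -0.03) and -0.44 after median centring (all tested -0.07). With single arrays left out, 37 to 51 were lower. Against the codes 32 to 37, 25 were lower with no filter, 24 with no time term and 32 to 45 with single arrays left out; 1 was higher when only probe sets above the median on all arrays were kept, and 1 without code 36 or code 34; the median after median centring was -0.41. For the codes 32 to 37 against 12 to 22, 7 were lower after quantile normalization, 5 with no filter, 3 with no time term and 6 to 13 with single arrays left out (6 without code 33 or code 34, 7 without codes 32, 22, 20 or 18); 1 was higher with no filter and with no time term, 3 to 4 with single arrays left out, and the median over the arrays at 1 h alone was -0.0701. Choosing probe sets without the suffixes s and x reversed Ndufa12 (0.41 in the codes 44 to 54 against 12 to 22, 0.14 in the codes 32 to 37 against 12 to 22) and Uqcrq (0.65 in the codes 44 to 54 against 32 to 37). No share of all probe sets is given for no filter, no time term, another filter or single arrays left out. Member counts under those settings therefore stand without a background. The causes were not tested. No paired analysis was possible because replicate numbers were given in accession order and the labels name no animal.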
